A study of Mus musculus with 6 samples.

Results

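The 10 genes described here are 9 members of the BCL2 family, which decides whether a cell survives or dies through its mitochondria, and 1 surface receptor of the tumour necrosis factor family. They were chosen by symbol from the expression table of the study, with earlier results of these data known. They are Bcl2, Bcl2l1, Mcl1, Bax, Bak1, Bad, Bid, Bcl2l11 and Bmf of the BCL2 family, and Tnfrsf12a, the receptor of the cytokine TWEAK. Each of the 10 symbols stood on 1 of the 54532 genes in the table. The samples are poly-A RNA from hearts of 4-day-old mice, 3 with a conditional knockout of Wtap (labelled Wtap-CKO) and 3 that carry the floxed gene (Wtapflox/flox, written Wtap-flox from here on). WTAP, the product of the targeted gene, is an adaptor of the methyltransferase complex that places m6A on messenger RNA, and the series asks how it acts in heart development. The sources used here give neither the Cre driver nor the deleted exons, and neither strain nor sex of the pups, nor whether Wtap-flox pups were littermates. Replicates within a group are biologically independent, per the labels' protocols.

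Library depth, recovered from the deposited values, was 15649028 to 18045599 reads in genes, where a read may stand for a pair. Levels are in FPKM, which divides a gene's reads by its length and by a scaling value of its library, so that levels of different genes can be set side by side. Here that value was not the library's total of reads in genes. For Wtap-flox 1 the deposited values imply 17431182, against 16589331 reads recovered. Relative to each other, the scaling values (0.926 to 1.06) followed the median ratio of reads between libraries (0.931 to 1.07). A median log2 fold change near 0 over all genes is thus largely set by this scaling. Wtap itself, counted over the whole gene, stood at 9.32, 7.75 and 9.46 FPKM in the hearts labelled Wtap-CKO and at 7.77, 8.74 and 10.9 FPKM in the Wtap-flox hearts (log2 fold change -0.04, adjusted p = 0.893, limma). A whole-gene value does not check a label when the deleted exons are not known, so every direction below rests on the labels. All 8 cardiomyocyte markers were detected in each library, with summed levels of 17160 to 21176 FPKM in Wtap-CKO and 16284 to 19765 FPKM in Wtap-flox. Of the 8, 0 rose and 1 fell, the calcium release channel gene Ryr2, at 18.3, 25.4 and 15.4 FPKM in Wtap-CKO and 50.6, 38.4 and 30.0 FPKM in Wtap-flox (log2 fold change -0.97, adjusted p = 0.0233, limma). Among the Wtap-CKO libraries, Wtap-CKO 3 correlated less closely with the other two (Pearson r = 0.965 and 0.957) than these did with each other (r = 0.979, across the 12568 tested genes, which are not independent replicates).

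The BCL2 family works by binding among its own members. Prosurvival proteins such as BCL2, BCL-XL (from Bcl2l1) and MCL1 hold the effectors BAX and BAK in check. When released, the effectors permeabilise the outer mitochondrial membrane, which frees cytochrome c and activates caspases. The BH3-only proteins BAD, BID, BIM (from Bcl2l11) and BMF carry stress signals into this balance, by neutralising prosurvival proteins or, for BIM and truncated BID, by activating the effectors directly. Cardiomyocytes divide rarely after the newborn period, and in mice MCL1 is required for their survival. TNFRSF12A, also called Fn14, is a small transmembrane receptor that binds TWEAK (from Tnfsf12) and signals through TRAF adaptors to NF-kB. It has no death domain, and it is known as a receptor induced by injury and growth factors in heart and skeletal muscle.

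In the hearts labelled Wtap-CKO, 6 of the 10 genes rose and none fell (limma on log2(FPKM + 1), adjusted p below 0.05 over all tested genes). With no filter on low levels 3 rose and 0 fell, and by limma-voom 6 rose and 1 fell. The risers were Tnfrsf12a, both effectors Bax and Bak1, the prosurvival genes Bcl2 and Bcl2l1, and the BH3-only gene Bid. Genes that promote and genes that oppose cell death therefore stood among the risers together. Mcl1, Bad, Bcl2l11 and Bmf did not pass, and Bcl2l11 was the 1 gene of these whose groups did not overlap, with the lower values in Wtap-CKO. Over all 12568 tested genes, 9.91% were called higher and 6.69% lower, and 16.6% were called in either direction. The median log2 fold change was 0.56 over the 10 genes and 0.00 over all tested genes. Since the 10 genes were chosen with earlier results of these data known, their counts and median are not a test of the family. The groups did not overlap in 7 of the 10 genes, 6 with higher and 1 with lower values in Wtap-CKO. Over all tested genes this held for 37.1%, with 19.8% higher and 17.3% lower. With 1 library left out the number of risers was 2 to 5: 2 without Wtap-flox 3, 3 without Wtap-CKO 1 or Wtap-flox 1, and 5 without any of the others. All 10 genes reached the mean of 1 FPKM needed to be tested. Bid did so only through Wtap-CKO, since its mean in Wtap-flox was 0.889 FPKM. In bulk tissue, fewer cells of a type and less RNA per cell cannot be told apart.

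**Figure D1:**
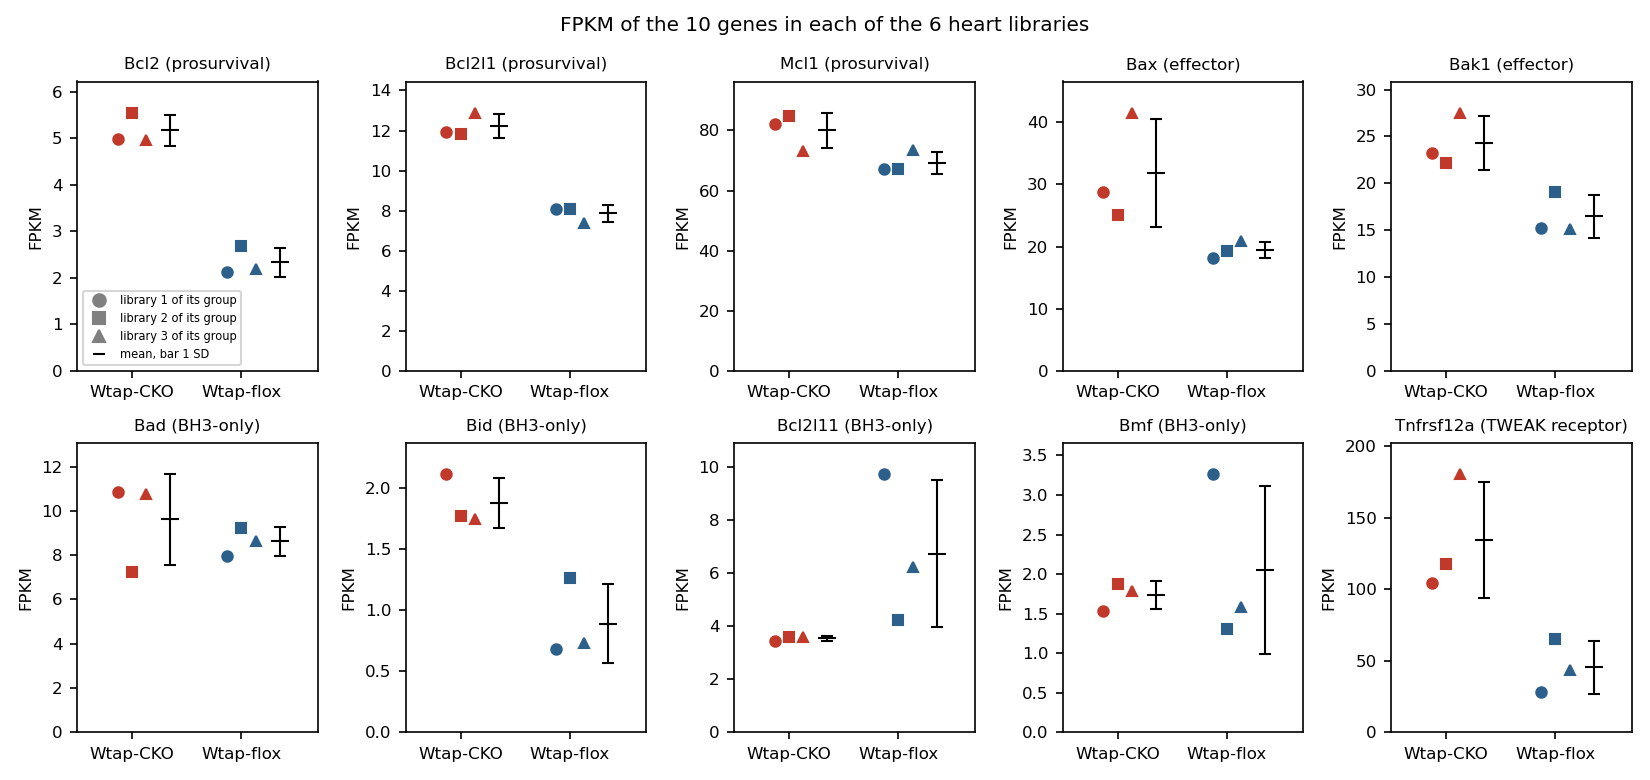
FPKM of each of the 10 genes (y axis, from 0) in the 3 Wtap-CKO libraries (red, left) and the 3 Wtap-flox libraries (blue, right), with the mean and 1 SD beside each group. The groups stand apart for Bcl2, Bcl2l1, Bax, Bak1, Bid, Bcl2l11 and Tnfrsf12a, while those of Mcl1, Bad and Bmf overlap.

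Tnfrsf12a (ENSMUSG00000023905, chromosome 17, 23675445 to 23677468 on the minus strand, GRCm38) had the largest change of the 10. It stood at 104, 118 and 181 FPKM in the hearts labelled Wtap-CKO, against 28.4, 65.1 and 43.4 FPKM in the Wtap-flox hearts. The lowest Wtap-CKO value lay above the highest Wtap-flox value, and Wtap-CKO 3 was the highest of all. The means were 134 ± 40.7 FPKM in Wtap-CKO and 45.6 ± 18.4 FPKM in Wtap-flox (SD, n = 3 each), a 2.94-fold ratio. The log2 fold change was 1.57 ± 0.32 (SE; adjusted p = 0.0181, limma), and its 95% interval ran from 0.81 to 2.34. Exact permutation of the FPKM values, two-sided, gave p = 0.1, the smallest that 3 against 3 allows. The call was lost without Wtap-CKO 2 (log2 fold change 1.65, adjusted p = 0.0535) and without Wtap-flox 3 (1.58, adjusted p = 0.0652, limma). Without Wtap-CKO 3 the log2 fold change was 1.34 (adjusted p = 0.0397, limma). Tnfrsf12a was the highest of the 10 genes in Wtap-CKO, where its range lay above that of Mcl1. In Wtap-flox it came second, its highest value of 65.1 FPKM lying just under the lowest of Mcl1 at 67.0 FPKM.

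Summed markers of macrophages, and of monocytes and neutrophils, were also higher in the Wtap-CKO libraries. Of the 7 macrophage markers, 3 rose and 0 fell, and their summed level was 78.9, 67.8 and 129 FPKM in Wtap-CKO and 45.1, 48.2 and 52.2 FPKM in Wtap-flox. The 6 monocyte and neutrophil markers, of which 4 were tested, summed to 14.9, 12.4 and 85.2 FPKM in Wtap-CKO and 7.75, 10.4 and 5.30 FPKM in Wtap-flox. Retnlg was the 1 gene of these called higher, and it was tested only through Wtap-CKO, at 2.30, 2.73 and 5.74 FPKM there and 0.387, 0.531 and 0.190 FPKM in Wtap-flox. Wtap-CKO 3 was the highest library in both lists as well as in Tnfrsf12a, Bax and Bak1. The sum of FPKM over all genes was also highest in Wtap-CKO 3 (388328, against 315632 to 364948 in the others). For the summed cardiomyocyte markers Wtap-CKO 3 was highest at 21176 FPKM, with Wtap-flox 2 next at 19765 FPKM. It was also highest for the summed smooth muscle and pericyte markers (959 FPKM). Acta2 made up 865 FPKM of that sum, while Rgs5 was lowest in Wtap-CKO 3 (56.1 FPKM). None of the 5 tested markers of that list was called. Wtap-CKO 3 was the lowest library for the summed fibroblast markers (530 FPKM). The 5 lymphocyte markers summed to at most 1.66 FPKM in any library, and none was tested. Fibroblast markers summed to 530 to 741 FPKM in Wtap-CKO and 705 to 802 FPKM in Wtap-flox, with 2 of 8 lower (Lum and Dcn). Endothelial markers summed to 203 to 221 FPKM in Wtap-CKO and 212 to 240 FPKM in Wtap-flox, with 1 of 6 higher and 1 lower. Beside these marker counts, 9.91% of all tested genes were called higher and 6.69% lower. The part of these cell types in the changes of the 10 genes was not tested.

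The promoters of the genes with the largest rise in 3 roles are shown here, for the receptor, a prosurvival gene and an effector: Tnfrsf12a (chr17:23677400-23677699, minus strand), Bcl2 (chr1:106714241-106714540, minus strand) and Bax (chr7:45466849-45467148, minus strand). Each runs from 250 bases before to 50 bases after the annotated start, 5′ to 3′, from RefSeq on GRCm38.p6. Capitals mark GC boxes (GGGCGG on either strand) and, in Bax, E-boxes (CACGTG).
Tnfrsf12a: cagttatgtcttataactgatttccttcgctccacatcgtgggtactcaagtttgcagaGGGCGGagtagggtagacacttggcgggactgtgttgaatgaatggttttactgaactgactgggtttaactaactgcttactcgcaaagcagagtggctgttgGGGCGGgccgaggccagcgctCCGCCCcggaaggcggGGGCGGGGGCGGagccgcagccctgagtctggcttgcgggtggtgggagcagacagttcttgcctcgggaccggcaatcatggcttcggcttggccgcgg
Bcl2: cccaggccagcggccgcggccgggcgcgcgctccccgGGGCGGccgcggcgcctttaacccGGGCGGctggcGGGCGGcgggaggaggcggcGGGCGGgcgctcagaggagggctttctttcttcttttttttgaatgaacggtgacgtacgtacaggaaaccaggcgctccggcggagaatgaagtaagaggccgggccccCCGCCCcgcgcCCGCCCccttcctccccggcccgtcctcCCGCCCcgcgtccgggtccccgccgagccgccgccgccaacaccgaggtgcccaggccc
Bax: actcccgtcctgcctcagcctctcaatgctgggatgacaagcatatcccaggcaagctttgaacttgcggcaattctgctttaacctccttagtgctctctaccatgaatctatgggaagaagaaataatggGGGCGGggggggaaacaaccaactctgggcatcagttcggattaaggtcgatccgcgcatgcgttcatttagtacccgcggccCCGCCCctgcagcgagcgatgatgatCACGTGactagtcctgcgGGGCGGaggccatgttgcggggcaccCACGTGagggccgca
The Bcl2 promoter held 7 GC boxes, that of Tnfrsf12a held 5, 2 of them abutting, and that of Bax held 3 with 2 E-boxes. RefSeq lists 16 promoters for the 10 genes, and 9 of them, in 8 genes, held a GC box, as did 35.7% of all 32841 promoters. The median GC content was 59.2% in the 16 promoters and 52.7% in all. E-boxes stood in 7.15% of all promoters. Other patterns were searched on both strands in the same way, and matches of different patterns may overlap. TGANTCA (AP-1) stood in none of the 16 promoters and in 7.81% of all, the CRE (TGACGTCA) in none and in 1.79%, and the TATA box (TATAAA) in none and in 13.6%. The CCAAT box (CCAAT) stood in 5 of the 16 and in 37.4% of all. CATTCC, bound by TEAD factors, stood in 2 of the 16, those of Mcl1 and Bcl2l1, and in 14.7% of all. The NF-kB consensus stood in 1 promoter each of Bcl2l1 and Bmf and in 8.46% of all. These matches describe the sequence and say nothing of which factor binds.

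Among the prosurvival genes, Bcl2 and Bcl2l1 rose in the hearts labelled Wtap-CKO, and Mcl1, the most abundant of the 3, did not pass. Bcl2 (ENSMUSG00000057329, chromosome 1, 106538178 to 106714274, minus strand) stood at 4.98, 5.55 and 4.96 FPKM in Wtap-CKO, against 2.12, 2.69 and 2.19 FPKM in Wtap-flox. The groups were far apart relative to their spread, with means of 5.17 ± 0.334 FPKM in Wtap-CKO and 2.33 ± 0.314 FPKM in Wtap-flox (SD, n = 3 each), a 2.21-fold ratio. The log2 fold change was 0.89 ± 0.12 (SE; adjusted p = 0.00226, limma). This was the smallest adjusted p of the 10 genes, and Bcl2 passed under all 19 alternatives in which it was tested, with log2 fold changes of 0.75 to 1.14. The antisense gene D630008O14Rik, which overlaps Bcl2, was listed at 0 in every library.

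Bcl2l1 (ENSMUSG00000007659, chromosome 2, 152780668 to 152831728, minus strand) encodes BCL-XL, the long prosurvival form, and by alternative splicing also a short form that promotes death. Gene-level values do not tell the forms apart. It stood at 11.9, 11.8 and 12.9 FPKM in Wtap-CKO and at 8.11, 8.08 and 7.40 FPKM in Wtap-flox, with little spread in either group. The log2 fold change was 0.58 ± 0.11 (SE; adjusted p = 0.00875, limma), and all 20 alternatives called it, at 0.41 to 0.63. Mcl1 (ENSMUSG00000038612, chromosome 3, 95658788 to 95663176, plus strand), whose product is a short-lived protein, stood at 82.0, 84.7 and 73.3 FPKM in Wtap-CKO and at 67.0, 67.1 and 73.5 FPKM in Wtap-flox. Wtap-CKO 3 lay within the Wtap-flox range, and the groups overlapped. Its log2 fold change of 0.21 had an interval that held 0, from -0.10 to 0.51 at 95% (adjusted p = 0.328, limma). The sign turned with quantile normalization (-0.020).

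Mcl1 made up most of the summed prosurvival transcript level in every library. Its share of the summed FPKM of Bcl2, Bcl2l1 and Mcl1 was 82.9%, 83.0% and 80.4% in Wtap-CKO and 86.8%, 86.2% and 88.5% in Wtap-flox. The level of Mcl1 was 14.8 to 16.4 times that of Bcl2 in Wtap-CKO and 24.9 to 33.6 times in Wtap-flox. These shares and ratios were set up with the changes of the single genes known and are descriptions, with no test.

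Both effector genes rose in the hearts labelled Wtap-CKO. Bax (ENSMUSG00000003873, chromosome 7, 45461697 to 45466898, minus strand) stood at 28.8, 25.0 and 41.6 FPKM in Wtap-CKO and at 18.2, 19.3 and 20.8 FPKM in Wtap-flox. All Wtap-CKO values were higher, and Wtap-CKO 3 stood well above the other two. The means were 31.8 ± 8.67 FPKM in Wtap-CKO and 19.4 ± 1.33 FPKM in Wtap-flox (SD, n = 3 each; log2 fold change 0.65 ± 0.18 SE, adjusted p = 0.0409, limma). Bak1 (ENSMUSG00000057789, chromosome 17, 27019810 to 27029009, minus strand) stood at 23.2, 22.1 and 27.5 FPKM in Wtap-CKO and at 15.2, 19.1 and 15.1 FPKM in Wtap-flox. Its groups did not overlap either, and its log2 fold change was 0.54 ± 0.14 (SE; adjusted p = 0.0325, limma). The whole Bak1 locus, 9200 bases, lies within that of Ggnbp1 on the opposite strand, which averaged 1.93 FPKM in Wtap-CKO and 3.57 FPKM in Wtap-flox. No source used here gives the strandedness of the libraries, so reads of the pair cannot be told apart. Gm45808, which overlaps 915 bases of Bax, was listed at 0 in every library. The ranges of Bax and Bak1 overlapped within each group, so the order of these 2 levels is not resolved.

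The calls of both effectors lay near the threshold. Each was lost under 11 of 20 alternatives, and neither changed sign. Bax was not called when Wtap-CKO 1 (adjusted p = 0.0799, limma), Wtap-flox 1 (0.119), Wtap-flox 2 (0.113) or Wtap-flox 3 (0.0771) was left out. Bak1 was not called when Wtap-CKO 1 (adjusted p = 0.0782, limma), Wtap-CKO 3 (0.0621), Wtap-flox 1 (0.104) or Wtap-flox 3 (0.104) was left out. Without Wtap-CKO 3 the log2 fold change of Bax was 0.45 and Bax was still called (adjusted p = 0.0471, limma). When each library was rescaled to the same sum of FPKM (TPM scaling), the median log2 fold change over tested genes moved to -0.13, and Bax and Bak1 had 0.49 (adjusted p = 0.0596, limma) and 0.38 (adjusted p = 0.0748).

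**Figure D2:**
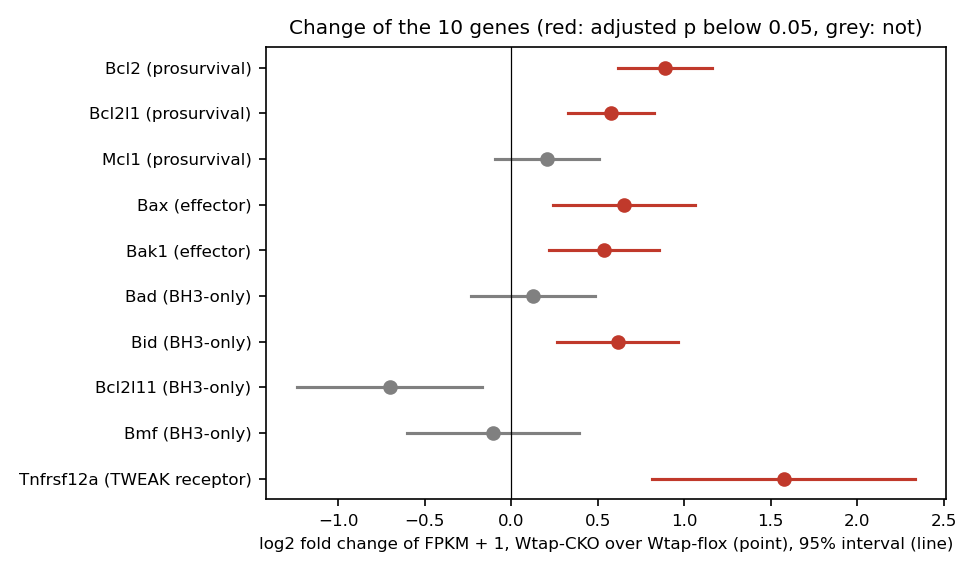
Log2 fold change of FPKM + 1, Wtap-CKO over Wtap-flox (x axis), for each of the 10 genes (points) with its 95% interval (lines), red where the adjusted p is below 0.05. The 6 intervals in red lie above 0, and that of Bcl2l11, from -1.24 to -0.17, lies below 0 in grey because its adjusted p was 0.0766.

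Of the 4 BH3-only genes, Bid rose and none fell in the hearts labelled Wtap-CKO. Bid (ENSMUSG00000004446, chromosome 6, 120891930 to 120916853, minus strand), which links death receptors to mitochondria once its product is cleaved, stood at 2.11, 1.77 and 1.74 FPKM in Wtap-CKO and at 0.679, 1.26 and 0.731 FPKM in Wtap-flox. All 3 Wtap-CKO values were higher. The values rest on 97 to 121 reads in Wtap-CKO and 42 to 71 reads in Wtap-flox, the fewest among the risers. The log2 fold change was 0.62 ± 0.15 (SE; adjusted p = 0.0279, limma) with a pseudocount of 1, which understates the change at this level, and 1.04 with a pseudocount of 0.1. The call was lost without Wtap-CKO 1, Wtap-flox 1 or Wtap-flox 3, at an adjusted p of 0.0973, 0.0918 and 0.0891 (limma). Bid was also not called with no filter on low levels. A stretch of 913 bases of Bid overlaps Bcl2l13 on the opposite strand, which averaged 10.5 FPKM in Wtap-CKO and 11.1 FPKM in Wtap-flox.

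Bcl2l11 (ENSMUSG00000027381, chromosome 2, 128126038 to 128162547, plus strand), which encodes BIM, stood at 3.45, 3.61 and 3.62 FPKM in Wtap-CKO and at 9.75, 4.26 and 6.23 FPKM in Wtap-flox. The Wtap-CKO values were close together and below all Wtap-flox values, which spread more than 2-fold. Bcl2l11 did not pass, at a log2 fold change of -0.70 (95% interval -1.24 to -0.17, adjusted p = 0.0766, limma). It was called lower without Wtap-flox 2 (-0.95, adjusted p = 0.0198, limma) and by limma-voom on the recovered reads (-0.85, adjusted p = 0.0450). Bmf (ENSMUSG00000040093, chromosome 2, 118528757 to 118549687, minus strand), whose product is tied to the cytoskeleton in healthy cells, stood at 1.53, 1.87 and 1.79 FPKM in Wtap-CKO and at 3.27, 1.31 and 1.58 FPKM in Wtap-flox. Its groups overlapped (log2 fold change -0.11, adjusted p = 0.777, limma), and without Wtap-flox 1 the sign turned (0.16). Wtap-flox 1 was the highest of the 6 libraries for both Bcl2l11 and Bmf. Bad (ENSMUSG00000024959, chromosome 19, 6941861 to 6951898, plus strand), whose product is held inactive by phosphorylation, stood at 10.8, 7.26 and 10.8 FPKM in Wtap-CKO and at 7.97, 9.25 and 8.63 FPKM in Wtap-flox. Wtap-CKO 2 was the lowest library of all, and the groups overlapped (log2 fold change 0.13, adjusted p = 0.631, limma). The sign of Bad turned with TPM scaling (-0.026), and 590 bases of its locus overlap Gpr137 on the opposite strand.

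The ratio of the summed effector to the summed prosurvival transcripts overlapped between the groups, and ratios of single genes differed in this. The summed level of Bax and Bak1 was 52.0, 47.2 and 69.1 FPKM in Wtap-CKO and 33.4, 38.3 and 36.0 FPKM in Wtap-flox. The summed level of Bcl2, Bcl2l1 and Mcl1 was 98.9, 102 and 91.1 FPKM in Wtap-CKO and 77.2, 77.9 and 83.1 FPKM in Wtap-flox. Both sums lay higher in Wtap-CKO, without overlap, which for the effectors follows from the values of Bax and Bak1 themselves. The ratio of the first sum to the second was 0.526, 0.462 and 0.758 in Wtap-CKO and 0.433, 0.492 and 0.433 in Wtap-flox, and these ranges overlapped. The ratio of Bax to Bcl2 was 5.78, 4.51 and 8.38 in Wtap-CKO and 8.60, 7.16 and 9.53 in Wtap-flox, which also overlapped. The ratio of Bax to Bcl2l1 was 2.42, 2.11 and 3.22 in Wtap-CKO and 2.25, 2.39 and 2.82 in Wtap-flox, with overlap as well. The ratio of Bax to Mcl1 was 0.351, 0.295 and 0.567 in Wtap-CKO and 0.272, 0.287 and 0.284 in Wtap-flox. Here all Wtap-CKO values were higher, by little in Wtap-CKO 2 and most in Wtap-CKO 3. The ratio of Bak1 to Mcl1 was 0.283, 0.261 and 0.376 in Wtap-CKO and 0.227, 0.284 and 0.206 in Wtap-flox, with overlap. The ratio of Bcl2l11 to Bcl2 was 0.692, 0.651 and 0.729 in Wtap-CKO and 4.61, 1.58 and 2.85 in Wtap-flox. In that pair of genes the groups stood apart, which follows from the single genes, as Bcl2 lay higher and Bcl2l11 lower without overlap. Bcl2 stood above Bcl2l11 in each Wtap-CKO library and below it in each Wtap-flox library. These sums and ratios are of transcript levels, with no test, and say nothing of protein.

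**Figure D3:**
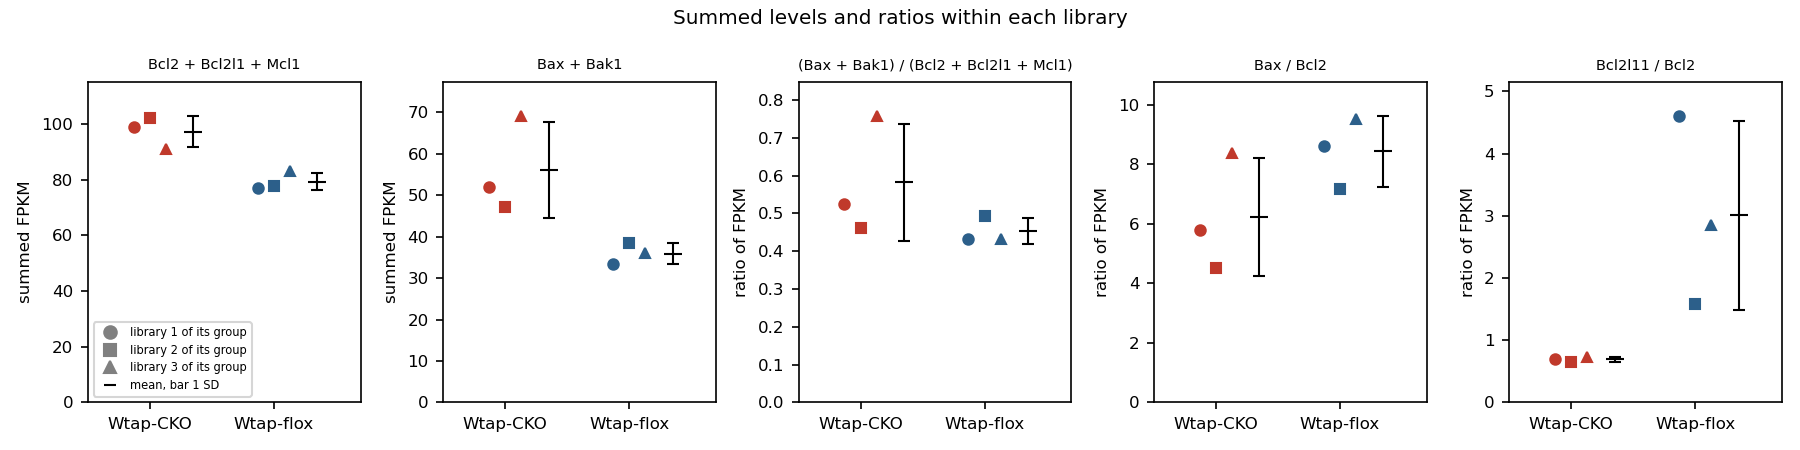
Summed FPKM of the 3 prosurvival genes and of the effectors (first 2 panels) and ratios of FPKM within each library (last 3 panels), from 0, with the mean and 1 SD for Wtap-CKO (red, left) and Wtap-flox (blue, right). Both sums and the ratio of Bcl2l11 to Bcl2 separate the groups, and the ratio of effectors to prosurvival genes, 0.462 to 0.758 in Wtap-CKO and 0.433 to 0.492 in Wtap-flox, does not.

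Few other genes of the same pathways changed in the hearts labelled Wtap-CKO. In 9 lists with 107 genes, 87 reached the level needed for testing, of which 10 rose and 3 fell, with a median log2 fold change of -0.05. Over all tested genes 9.91% rose and 6.69% fell, so the share that rose lay near the background. Among the rest of the BCL2 family, 2 of 10 tested genes rose and 0 fell. Bnip3, a mitochondrial protein of hypoxia and mitophagy, stood at 51.2, 37.4 and 40.7 FPKM in Wtap-CKO and at 16.8, 25.9 and 21.8 FPKM in Wtap-flox (log2 fold change 0.98, adjusted p = 0.00838, limma), and its relative Bnip3l had -0.05. The BH3-only gene Bik rose by 0.53 (adjusted p = 0.0460, limma) and lost the call in 5 of 6 fits with 1 library left out. Bbc3, which encodes PUMA, had -0.39 (adjusted p = 0.135), and the prosurvival gene Bcl2l2 had 0.25 (adjusted p = 0.161, limma). The p53 target Pmaip1, which encodes NOXA, lay at 0.571 FPKM or less in each library and was not tested.

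On the TWEAK side, the ligand gene did not pass the test. Tnfsf12, which encodes TWEAK, stood at 4.09, 3.12 and 3.86 FPKM in Wtap-CKO and at 4.92, 3.32 and 3.39 FPKM in Wtap-flox (log2 fold change -0.05, adjusted p = 0.863, limma). Cd163, a scavenger receptor for TWEAK on macrophages, lay at 0.488 FPKM or less and was not tested. Of 14 tested TRAF and NF-kB genes, 3 rose and 0 fell, against 9.91% and 6.69% of all tested genes. The number that rose was 0 with no filter, with upper-quartile or TPM scaling, with scaling that leaves out mitochondrially encoded genes, and without Wtap-flox 2 or Wtap-flox 3. As reported they were the adaptors Traf5 (0.48, adjusted p = 0.0285) and Traf3 (0.45, adjusted p = 0.0419) and the noncanonical NF-kB subunit Relb (0.60, adjusted p = 0.0290, limma). Traf3 and Traf5 each lost the call in 5 of 6 fits with 1 library left out, and Relb in 3. Traf2, the adaptor that also binds TNFRSF12A, had -0.23 (adjusted p = 0.204), and Nfkb2, the partner of RELB, had -0.00 (limma). Among 10 other receptors of the family, Tnfrsf23, a decoy receptor for TRAIL in mice, rose to 2.36, 2.16 and 2.32 FPKM in Wtap-CKO, against 0.623, 0.826 and 0.755 FPKM in Wtap-flox (0.92, adjusted p = 0.00221, limma). It reached the level needed for testing only through Wtap-CKO, since its Wtap-flox mean was 0.734 FPKM, and it was also called with no filter. The neurotrophin receptor gene Ngfr fell by 0.51 (adjusted p = 0.0491, limma) and kept the call in 1 of 6 fits with 1 library left out.

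Downstream of the mitochondria, 2 of 18 genes rose and 1 fell. The background for the counts in this paragraph is 9.91% higher and 6.69% lower over all tested genes. Htra2, a protease released from the intermembrane space, stood at 15.0, 17.3 and 20.0 FPKM in Wtap-CKO and at 8.26, 10.1 and 9.12 FPKM in Wtap-flox (log2 fold change 0.86, adjusted p = 0.00444, limma), and all 20 alternatives called it. The mitochondrial nuclease gene Endog rose by 0.58 (adjusted p = 0.0406, limma) and kept the call in 1 of 6 fits with 1 library left out. Casp2 did not pass (-0.39, adjusted p = 0.0540, limma). Of 14 tested death receptor and necroptosis genes, Tnfrsf1a, the main receptor for tumour necrosis factor, rose by 0.47 (adjusted p = 0.0245, limma; called in 1 of 6 fits with 1 library left out), and 0 fell. Of 20 genes that act on MCL1, BIM or BAD or upstream of them, 1 rose and 1 fell. Pim3, a kinase that phosphorylates BAD, rose to 46.7, 51.1 and 54.3 FPKM in Wtap-CKO, against 29.2, 26.0 and 24.6 FPKM in Wtap-flox (0.91, adjusted p = 0.00276, limma). Fbxw7, the substrate receptor of a ubiquitin ligase for MCL1, fell to 3.20, 3.95 and 2.77 FPKM in Wtap-CKO, against 8.56, 5.88 and 6.15 FPKM in Wtap-flox (-0.86, adjusted p = 0.00890, limma). Pim3 and Fbxw7 passed under all 20 alternatives.

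**Figure D4:**
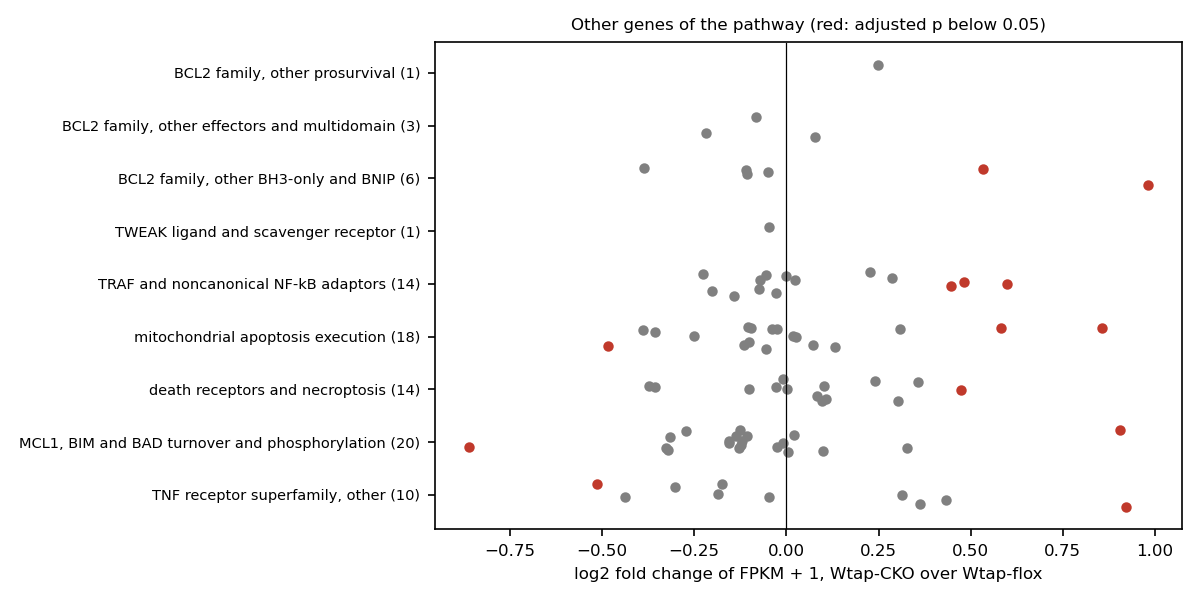
Log2 fold change of FPKM + 1, Wtap-CKO over Wtap-flox (x axis), of the 87 tested genes in 9 lists of related genes (rows, with the number tested), 1 point a gene, red where the adjusted p is below 0.05. Red points are few in each list: 10 lie right of 0 and 3 left of it.

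The genes whose pattern over the 6 libraries was most like that of Tnfrsf12a were Pea15a (Pearson r = 0.995), Tinagl1 (0.990), Trmt61a (0.990), Hspb1 (0.989) and Rtl8c (0.989), by log2(FPKM + 1), among 6980 coding genes that averaged 5 FPKM or more. Hspb1, a small heat shock protein gene, ranged over 489 to 715 FPKM in Wtap-CKO and 178 to 304 FPKM in Wtap-flox. Pea15a, which encodes a death effector domain protein, ranged over 49.4 to 54.3 FPKM in Wtap-CKO and 42.0 to 46.3 FPKM in Wtap-flox. Those most like Mcl1 were BC005537 (0.999), Mapk1ip1l (0.998), Slc25a36 (0.992), Rnf139 (0.992) and Rlim (0.992). All these values share the same 6 libraries and their group difference.

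GGAC, the core of the consensus that the m6A writer complex prefers, was counted on the sense strand of the longest coding transcript of each gene in GENCODE vM39. Bax had 12 copies in 1100 bases, or 10.9 per kb, which put it at percentile 99.7 of 11092 tested coding genes, whose median was 3.99 per kb. Bak1 (5.86 per kb) and Bmf (5.59 per kb) came next, and Bcl2, with 29 copies in 7247 bases, had 4.00 per kb. Tnfrsf12a had 4 copies in 1110 bases (3.60 per kb), and Bad, at 2.70 per kb, had the fewest per kb. The 6 risers therefore included genes above and below the median. The data hold no measurement of methylation, and these counts describe sequence only.

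**Figure D5:**
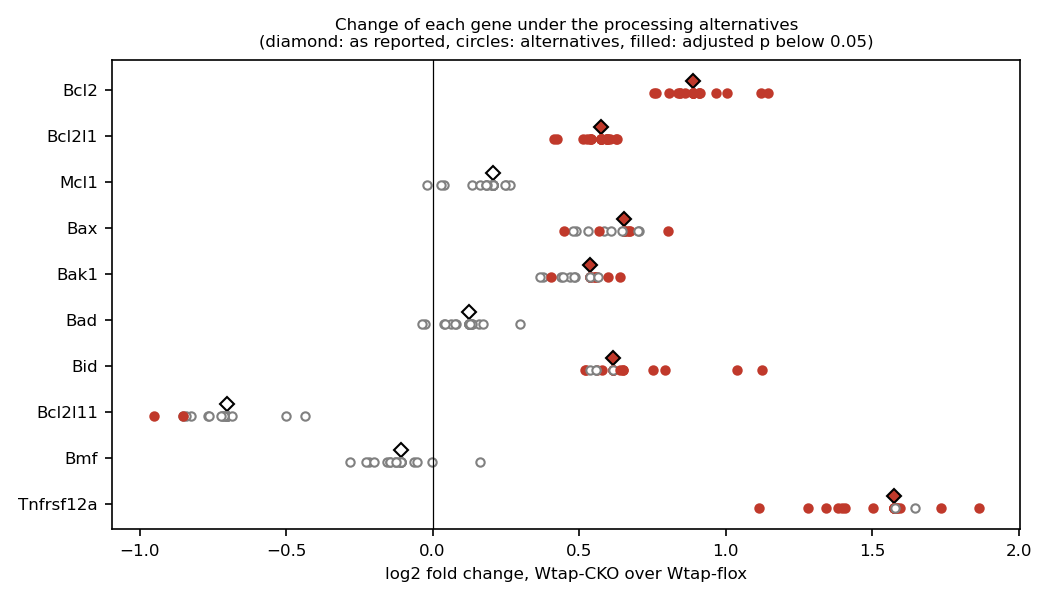
Log2 fold change of each gene, Wtap-CKO over Wtap-flox (x axis), as reported (diamonds) and under each processing alternative (circles), filled where the adjusted p was below 0.05. Bcl2 (0.75 to 1.14) and Bcl2l1 (0.41 to 0.63) are filled throughout, and Bax, Bak1, Bid and Tnfrsf12a have both open and filled circles, all right of 0.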

How the data were processed

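The authors deposited FPKM values per gene. Per the submitters' processing notes, the tools were CASAVA, HISAT2 (2.0.5), featureCounts (1.5.0-p3) and a count test, with GRCm39 as the build. The deposited coordinates match GRCm38 instead: 94.7% of 20874 coding genes had an end within 1000 bases of that in GRCm38.p6, and 3.35% of 21728 did in GRCm39. Multiplied by gene length, the FPKM values of a library fell on whole multiples of its step (tolerance 0.01), which gave the reads. No source used here tells the strandedness, how overlapping genes were counted or the authors' thresholds.

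A gene was tested if it averaged 1 FPKM or more over the 6 libraries. The test was limma (3.58.1, R 4.3.3) on log2(FPKM + 1) with trended, robust moderation, two-sided, adjusted by Benjamini-Hochberg over all tested genes at 0.05. The pseudocount of 1 understates changes of low genes. The procedure was tested on simulated data. The simulation held neither changes as small as those of Bcl2l1, Bax and Bak1 nor a library that departs from its group. Fold changes are Wtap-CKO over Wtap-flox, and intervals are at 95%. The members' FPKM values were also compared by exact two-sided permutation, whose smallest p is 0.1. Members and lists were chosen with earlier results of these data known. All 107 symbols in 9 lists were found. The text names the 10 members, Wtap, from each list up to 4 tested genes by smallest adjusted p and the first that went the other way, and the 5 coding genes, averaging 5 FPKM or more, most correlated with Tnfrsf12a and with Mcl1. Not all genes this allows are printed, and the values of some genes counted in the lists are not reported here. Bnip3l, Nfkb2, Pmaip1, Cd163, Tnfrsf9, Retnlg, Ryr2, Lum, Dcn, Acta2, Rgs5 and overlapping genes were named after their values were seen. Promoters are from RefSeq, and all 10 members matched. Alternatives were other pseudocounts, filters, scalings and limma settings, array weights, limma-voom on recovered reads, a replicate block, and each library left out. Python 3.11.15, pandas 2.3.3, scipy 1.17.1 and matplotlib 3.10.9 were used.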

Additional observations from a re-analysis of the deposited data

How the results depend on the processing

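Bcl2 and Bcl2l1 kept their call under each alternative in which they were tested, and Tnfrsf12a under 18 of 20, Bid under 14 of 19, and Bax and Bak1 under 9 of 20 each. No call changed sign. The signs that turned were those of genes that did not pass: Mcl1 with quantile normalization (-0.020), Bad with TPM scaling (-0.026) and without mitochondrially encoded genes in the scaling (-0.035), and Bmf without Wtap-flox replicate 1 (0.16, over a range of -0.28 to 0.16 with 1 library left out). Bcl2, Bid and Bmf were not tested when 5 FPKM on average was asked for. Of the 10 genes, 3 rose without a filter, and 1 fell, Bcl2l11, by limma-voom. With 1 library left out 2 to 5 rose and 0 to 1 fell. Counts over all genes were 1245 higher and 841 lower, and with 1 library left out 715 to 1187 higher and 417 to 829 lower. Without a filter 723 were higher and 483 lower, with an average of 5 FPKM asked for 471 were lower, and with array weights 2056 were higher and 1676 lower. With TPM scaling 799 were higher and 1600 lower, and with scaling that leaves out mitochondrially encoded genes 774 and 1590. The share called higher was 59.7% as reported, 49.3% with upper-quartile scaling, 33.3% with TPM scaling and 32.7% without mitochondrially encoded genes, and the last pair moved the median log2 fold change over tested genes to -0.13 and -0.14.

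Of the other pathway genes 10 were higher and 3 lower, and with 1 library left out 4 to 7 were higher and 1 to 5 lower. Without a filter 5 were higher and 1 lower, with upper-quartile scaling 5 were higher, with TPM scaling 4 higher and 10 lower, and without mitochondrially encoded genes in the scaling 4 and 9. With an average of 0.1 FPKM asked for and without robust moderation 1 was lower, with array weights 10 and with limma-voom 5. Deviations of same-numbered libraries from their group means did not correlate positively (r = -0.22, -0.08 and -0.08). Libraries of different numbers gave r from -0.14 to 0.26. With 3 libraries a group, these values cannot decide whether the samples were paired. With the replicate block 4 of the 10 genes rose (Bcl2, Bcl2l1, Bax and Tnfrsf12a), Bak1 had an adjusted p of 0.0582 (limma) and Bid 0.0501, and 6 of the other pathway genes were higher and 1 lower. The causes of these differences were not tested. With 3 hearts a group and 42 to 71 reads for Bid in Wtap-flox, changes smaller than those called may have been missed.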

Other observations

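Tnfrsf9, a costimulatory receptor of the same family, was singled out after its values were seen. Its mean fell short of the level needed for testing. It stood at 1.34, 1.21 and 2.06 FPKM in the hearts labelled Wtap-CKO and at 0.0632, 0.231 and 0.207 FPKM in the Wtap-flox hearts, without overlap (exact two-sided permutation test, p = 0.1, the smallest that 3 against 3 allows).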
